A study of Mus musculus with 21 samples.

Results

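Wide regions of open chromatin were examined in ATAC-seq peak lists from mouse cerebellar granule neuron progenitors, medulloblastoma and a medulloblastoma cell line. ATAC-seq uses a transposase to cut and tag accessible DNA, and the MACS2 peak caller marks each local maximum of the cuts within a peak as a summit. A peak that holds several summits is split into lines that share a name and differ in a final letter, so the number of summits per peak can be counted. A peak with 5 or more summits in a library was taken as wide, and its span was measured from the first to the last summit. Of the 3396860 peaks in the 21 libraries, 61745 were wide. Overlapping spans were merged across libraries into 13375 wide regions, and the remaining peaks formed 496682 further merged regions, which served as the background. The wide regions were chosen by their summit count, so summit counts, widths and scores of wide peaks are given as descriptions, without a test. The summit number of a region in a library is that of its richest peak there.

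The libraries formed 7 groups of 3. GNP libraries came from granule neuron progenitors at postnatal day 7, and their titles carry the name Ptch1, but the labels give no allele. Hyperplasia libraries, titled PNC, came from day 28, and tumor libraries came from medulloblastoma of no stated age. Cells of these 9 primary libraries were sorted for EGFP from the cerebella of Atoh1-EGFP mice. GNP and hyperplasia cells were purified on a Percoll gradient, and tumor cells were dissociated with trypsin and DNase. Which Atoh1 sequence the EGFP reporter carries is not stated, so reads of the reporter and of the gene cannot be told apart there. The other 12 libraries came from VDR, a mouse medulloblastoma line: 3 treated with siNfia, 3 with siNfib, 3 with siNC, and 3 with no treatment named. Both treatments are named after genes of the Nuclear factor I family. The labels write si and some deposited names write sh, so the reagent is uncertain, and no RNA level of Nfia or Nfib was used to check the treatments. The labels do not say whether replicates were separate animals or cultures, so the p-values measure the spread between these libraries, which may be technical. Read depth is unknown, because the lists hold scores and no counts.

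Granule neuron progenitors divide in the outer layer of the young cerebellum in response to Sonic hedgehog. The ligand relieves the block that its receptor Ptch1 places on Smoothened, and the Gli factors then act on their targets, while Sufu holds them back. Loss of that restraint gives rise to medulloblastoma. Atoh1, a basic helix-loop-helix factor, defines the progenitors. Nuclear factor I proteins bind palindromic sites and take part in granule neuron maturation. Long accessible stretches often lie over promoters rich in CpG dinucleotides and over clustered enhancers of genes that give a cell its identity.

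The windows around the start sites of 6 genes show what lay under the wide regions, from 250 bases before to 50 bases after the start, taken from RefSeq on build GRCm38.p6 and written along the gene's strand with each CpG in capitals. Atoh1 (chr6:64728875-64729174, plus strand) stands for the progenitor genes, and its start lay in a region that was wide in 18 libraries. Cdk6, a kinase of early cell cycle (chr5:3343643-3343942, plus), lay in a region wide in 17. Tlx3, a homeobox factor of neurons (chr11:33203539-33203838, minus), and Prmt8, a brain arginine methyltransferase (chr6:127769106-127769405, minus), had regions whose width differed between groups. Mdga1, an adhesion protein of neurons (chr17:29887833-29888132, minus), lay in a region wide in 20 libraries. Cx3cr1, the fractalkine receptor of microglia (chr9:120068247-120068546, minus), lay in none.
Atoh1: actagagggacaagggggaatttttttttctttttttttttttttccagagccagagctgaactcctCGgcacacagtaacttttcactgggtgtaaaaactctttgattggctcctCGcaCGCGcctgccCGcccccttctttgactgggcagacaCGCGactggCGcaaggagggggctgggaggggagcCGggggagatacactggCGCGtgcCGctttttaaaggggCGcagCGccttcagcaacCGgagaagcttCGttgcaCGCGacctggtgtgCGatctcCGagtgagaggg
Cdk6: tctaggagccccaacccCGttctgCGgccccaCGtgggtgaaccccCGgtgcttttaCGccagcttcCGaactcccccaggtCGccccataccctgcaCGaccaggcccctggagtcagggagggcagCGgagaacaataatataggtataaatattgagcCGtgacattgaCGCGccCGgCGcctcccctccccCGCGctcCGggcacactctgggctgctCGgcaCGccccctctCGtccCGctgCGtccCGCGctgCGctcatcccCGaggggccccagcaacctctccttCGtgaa
Tlx3: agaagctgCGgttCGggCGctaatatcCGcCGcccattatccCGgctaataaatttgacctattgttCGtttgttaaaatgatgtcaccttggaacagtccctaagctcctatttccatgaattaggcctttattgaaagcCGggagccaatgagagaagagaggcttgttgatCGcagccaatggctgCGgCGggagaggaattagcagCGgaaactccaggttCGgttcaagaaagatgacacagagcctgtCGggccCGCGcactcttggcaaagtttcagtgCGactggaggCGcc
Prmt8: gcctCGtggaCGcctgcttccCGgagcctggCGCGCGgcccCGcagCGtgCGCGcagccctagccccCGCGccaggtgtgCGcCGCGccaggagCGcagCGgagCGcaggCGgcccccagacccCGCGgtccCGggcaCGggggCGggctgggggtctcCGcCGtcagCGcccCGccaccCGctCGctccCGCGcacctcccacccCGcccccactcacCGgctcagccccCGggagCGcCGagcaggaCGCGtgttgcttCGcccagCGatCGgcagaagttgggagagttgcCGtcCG
Mdga1: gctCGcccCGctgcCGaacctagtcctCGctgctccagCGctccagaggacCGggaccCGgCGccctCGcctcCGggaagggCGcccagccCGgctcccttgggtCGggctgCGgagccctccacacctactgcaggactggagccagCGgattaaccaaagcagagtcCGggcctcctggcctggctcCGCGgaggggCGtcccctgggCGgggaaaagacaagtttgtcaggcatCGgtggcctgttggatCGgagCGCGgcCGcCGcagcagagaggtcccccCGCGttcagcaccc
Cx3cr1: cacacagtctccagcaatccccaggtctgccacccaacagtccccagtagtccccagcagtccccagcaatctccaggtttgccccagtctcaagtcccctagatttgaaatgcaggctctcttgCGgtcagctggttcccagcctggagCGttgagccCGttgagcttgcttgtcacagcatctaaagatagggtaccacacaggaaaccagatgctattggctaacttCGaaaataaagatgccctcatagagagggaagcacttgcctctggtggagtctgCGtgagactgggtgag

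These windows held 20 CpGs at Atoh1, 27 at Cdk6, 18 at Tlx3, 44 at Prmt8 and 28 at Mdga1, against 5 at Cx3cr1. Their GC content was 56.7%, 66.7%, 51.7%, 79% and 71.3% for the 5 genes in wide regions, and 54.3% for Cx3cr1. Tlx3 thus had more CpGs but a lower GC content than Cx3cr1. In the table of 21263 windows, the 6883 windows inside a wide region had a median of 25 CpGs and 65.0% GC, while the 14380 others had a median of 6 CpGs and 52.0% GC. Among those others, 7658 windows whose start lay in another merged peak had a median of 13 CpGs, and 6140 windows with the start in no peak had a median of 2. Windows in the 534 cases where the region was wide in at least 15 libraries had 27 CpGs and 66.7% GC.

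Short motifs were counted in the same windows, on both strands. The GC box GGGCGG occurred in 75.3% of windows inside a wide region, against 32.3% of the others and 46.2% of all windows. TATAAA occurred in 5.33% inside, 16.1% of the others and 12.6% of all, and the CCAAT box in 37.0%, 38.8% and 38.2%. The Nuclear factor I core TTGGCA was in 9.27% inside and 13.1% of all. The E-box CAGATG was found in 8.63% inside, 17.5% of the others and 14.6% of all, and CAGCTG in 13.6%, 16.5% and 15.6%. The full Nuclear factor I palindrome was in 0.0145% inside and 0.0417% of the others, and the GLI motif GACCACCCA in 0.203% and 0.167%. TTGGCA can lie within a full palindrome. A match describes the letters of a window, whose GC content differed between the sets, and no match says only that these letters were not in it.

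The number of wide peaks varied between libraries of 1 group. GNP libraries had 3546, 5826 and 4273, hyperplasia libraries 2936, 3032 and 2176, and tumor libraries 2677, 5137 and 2445. In the cell line there were 1946, 1304 and 3059 with siNfia, 3579, 3572 and 7757 with siNfib, 953, 2648 and 4706 with siNC, and 54, 40 and 79 in untreated VDR. Untreated VDR thus stood apart from all 18 other libraries, which ranged from 953 to 7757. Group means were 4548 ± 1165 in GNP, 2715 ± 469 in hyperplasia and 3420 ± 1492 in tumor, and the tumor and GNP ranges overlapped. They were 2103 ± 888 with siNfia, 4969 ± 2414 with siNfib, 2769 ± 1879 with siNC and 57.7 ± 19.8 in untreated VDR (SD, n = 3 each).

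The score of the summit ranked 100000th in each list moved with these counts. It was 16.1, 28.9 and 15.3 in GNP, 9.68, 12.6 and 9.26 in hyperplasia and 10.02, 21.3 and 11.8 in tumor. With siNfib it was 8.25, 8.36 and 17.4, with siNfia 5.50, 5.03 and 7.23, with siNC 4.95, 5.96 and 9.61, and in untreated VDR 3.84, 3.76 and 3.97. Within each of the 7 groups the library with the highest such score had the most wide peaks. The part of this score in the counts was not tested. When every list was reduced to its 100000 strongest summits, the means were 2300 in GNP, 1824 in hyperplasia, 1896 in tumor, 1684 with siNfia, 2894 with siNfib, 1960 with siNC and 57.7 in untreated VDR. Leaving out library 3 of siNfib brought its mean of whole lists to 3575.5, and leaving out library 3 or 1 of siNC gave 1800.5 or 3677.

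**Figure D1:**
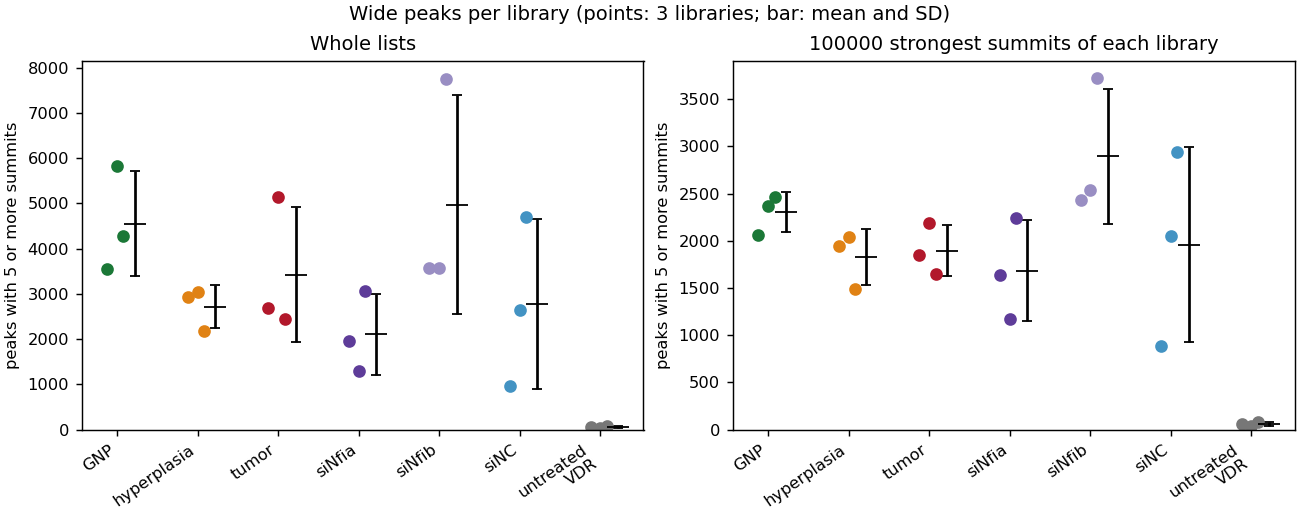
Number of wide peaks (5 or more summits) in each library, from the whole list and from its 100000 strongest summits; points are libraries and bars are the group mean with its SD (n = 3). Untreated VDR libraries lie at 40 to 79, far under the 953 to 7757 of the other 18 whole lists.

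The rule sat on a smooth range of widths. In the 18 libraries other than untreated VDR, peaks with 4 summits had a median span of 815 to 937 bp, those with 5 had 1091 to 1243 bp, and those with 6 had 1353 to 1554 bp. The median score of their strongest summit was 31.5 to 266 for 4 summits, 35.5 to 320 for 5 and 36.8 to 343 for 6. Merged regions had a median length of 1493 bp, from 568 to 17685 bp, and 77 exceeded 5000 bp. Neighbouring summits lay a median of 256 to 286 bp apart in wide peaks and 248 to 283 bp apart in peaks with 2 to 4 summits, so a wide peak held more summits at a similar spacing.

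Wide peaks lay near the ends of genes more often than other peaks. In the 18 libraries the centre was within 1 kb of either end of an annotated gene for 51.9% to 62.7% of wide peaks, against 10.7% to 17.4% of peaks with under 5 summits. For peaks with 2 to 4 summits the share was 18.5% to 38.7%, and these ranges do not overlap. The centre fell in a gene body for 66.1% to 79.6% of wide peaks and 56.0% to 58.3% of the rest. Of the 13375 merged regions, 9612 were centred in the body of a protein-coding gene, 3250 more had one within 100 kb, and 513 had none. In all, 8673 of 21887 protein-coding genes (39.6%) had a wide region of their own, and genes with many were Gse1 with 41, Nfib with 24, Cacna1c with 19, Gli2 with 17 and Nfia with 15.

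Few regions were wide everywhere. Of the 13375, 4238 (31.7%) were wide in a single library, 1400 of these in siNfib 3, the library with the most wide peaks. There were 654 wide in all 9 primary libraries, 272 in all 9 libraries treated with siNfia, siNfib or siNC, 96 in these 18 together and 4 in all 21. At least 1 primary library was wide at 9137 regions, and 3488 were wide in primary libraries only. A region that was not called wide in a library was seldom closed there: 91.5% to 98.7% of all regions held at least 1 summit in each of the 18 libraries, and 81.4% to 88.5% in untreated VDR.

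Of the 4 regions wide in all 21 libraries, 1 had no protein-coding gene nearby and 1 lay over ribosomal RNA sequence. The longest region of all, 17685 bp at chr1:88252397-88270081, covered Hjurp, a chaperone of the centromeric histone, and Mroh2a. It had 6, 12 and 8 summits in GNP, 20, 9 and 6 in hyperplasia, 7, 8 and 8 in tumor, 16, 13 and 20 with siNfia, 39, 16 and 57 with siNfib, 10, 12 and 29 with siNC, and 6, 6 and 5 in untreated VDR. Another, at chr17:39843345-39848661, held Rn18s-rs5, a ribosomal RNA sequence, with 16 to 20 summits in every library. A further one, at chr6:113074599-113080095, held the start of Setd5 beside Gt(ROSA)26Sor, the locus often used for transgenes, with 5 to 18 summits. The last, at chr4:81725709-81729213, had no protein-coding gene within 100 kb and 5 to 11 summits. The labels do not say how reads from repeated sequence were placed, so the values at Rn18s-rs5, and at Sfi1 described further on, are uncertain.

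A further 5 regions were wide in 20 libraries. They lay at Mdga1, whose start is printed above, at Irf2bp2, a transcriptional corepressor (chr8:126591157-126597049), at Trib1, a pseudokinase (chr15:59645833-59651463), at Phldb1 (chr9:44717739-44722356) and at Tef, a clock-output bZIP factor (chr15:81809483-81812913). The region at Fosb, an AP-1 subunit (chr7:19302731-19310804), reached 24 summits in GNP 2, against 7 and 8 in the other GNP libraries. At Gse1 (chr8:120534365-120540731) tumor libraries had 17, 22 and 15 summits.

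**Figure D2:**
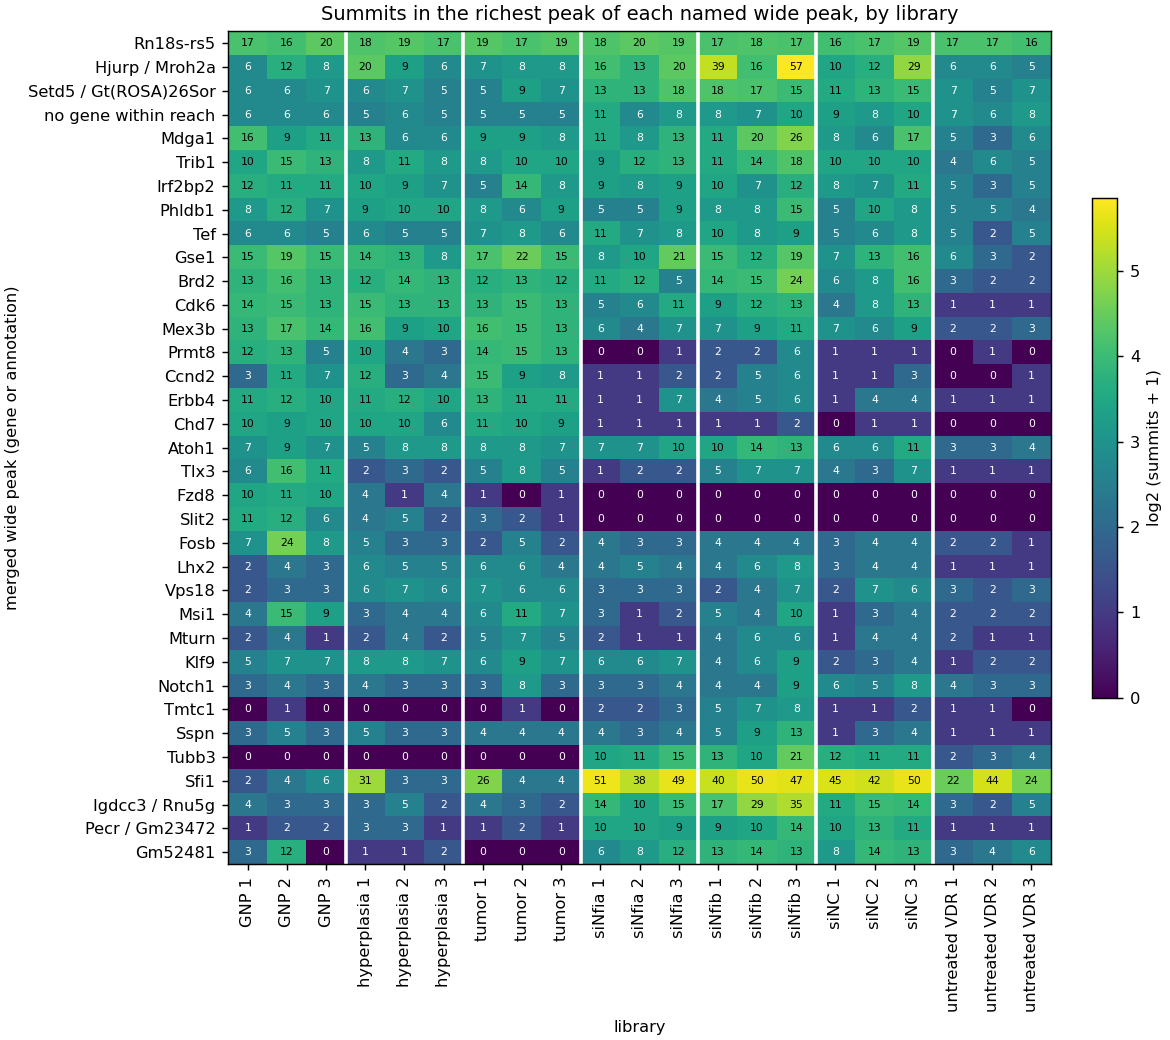
Heat map of the number of summits in 35 named wide regions (rows) across the 21 libraries (columns, grouped GNP, hyperplasia, tumor, siNfia, siNfib, siNC, untreated VDR), written in each cell and coloured on a log2 scale. Regions at Mdga1 and Rn18s-rs5 are wide nearly throughout, while those at Slit2, Prmt8 and Tmtc1 are wide in some groups and hold few or no summits in others.

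The genes of granule progenitors carried wide regions more often than genes at large. Of 32 listed progenitor genes, 31 had at least 1 wide region, all but Meis2, with 92 regions in total and 7 each at Pax6, Meis1 and Uncx. All 4 Nuclear factor I genes had them, 58 regions in total, with 24 at Nfib, 15 at Nfia, 12 at Nfix and 7 at Nfic. The counts were 17 of 20 Hedgehog pathway genes, 19 of 20 chromatin regulators, 15 of 16 AP-1 genes, 16 of 18 neural stem cell genes, 17 of 21 cell cycle genes, 22 of 27 maturation genes and 13 of 16 tumour suppressors. Histone genes had them at 13 of 16 and ribosomal protein genes at 13 of 28. Among the 38 Hox genes only Hoxc4 was assigned one.

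Markers of other cell types were counted in the same way. None of 9 microglia genes had a wide region in any library. The counts were 3 of 7 for astrocytes, 5 of 8 for oligodendrocytes, 2 of 8 for endothelium, 4 of 12 for Purkinje cells and interneurons and 6 of 12 for fibroblasts. The shares for oligodendrocytes (62.5%), fibroblasts (50%) and astrocytes (42.9%) lay above the 39.6% of all genes, and the others lay below. No gene of these 6 lists had the same region wide in all 9 primary libraries. By comparison 632 genes, or 2.89% of all genes, did, and among progenitor genes 11 did, or 34.4%. With so low a share over all genes, a count of 0 in lists of 7 to 12 genes says little about the sorted cells. In all 3 GNP libraries 59.4% of progenitor genes had a wide region, against 9.75% of all genes. The region at the start of Atoh1, the gene that defines granule progenitors, had 7, 9 and 7 summits in GNP, 5, 8 and 8 in hyperplasia, 8, 8 and 7 in tumor, 7, 7 and 10 with siNfia, 10, 14 and 13 with siNfib, 6, 6 and 11 with siNC and 3, 3 and 4 in untreated VDR. It was thus wide in all 18 libraries other than untreated VDR, where it still held summits. These shares describe lists chosen with earlier results of these data known and were given no test.

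To compare groups by a quantity other than the summit number, each region was given a rank level in each library. This is log2 of 100000 divided by the rank of its strongest summit among the 100000 strongest of that library, so 0 means that no such summit was kept, and a region with the top summit of a list reaches 16.61. It comes from the same reads as the summit number. Differences in rank level were fitted with limma over the wide regions and all other merged regions together, with a kept summit required in at least 3 libraries of a fit, and an adjusted p under 0.05 was called. In the fit of primary samples 12867 of the 13375 wide regions were tested and 508 were not. In the fit of treated VDR samples 12263 were tested and 1112 were not, and in the fit of tumor, siNC and untreated VDR 12986 were tested and 389 were not. Regions that passed only through the libraries of 1 group numbered 57, 57 and 510 in these 3 fits, and for those the difference was in part set by the filter.

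Hyperplasia was first compared with GNP. Fewer regions were wide in hyperplasia, regions at Boc, Unc5c and Pax6 had lower ranks, and regions at neural stem cell genes such as Sox1 and Olig2 had higher ranks. In all 3 hyperplasia libraries and no GNP library 18 regions were wide, 0.135% of all wide regions. In all 3 GNP libraries and no hyperplasia library 340 were, or 2.54%, and 881 were wide in all 6. From the 100000 strongest summits of each library the 2 counts were 30 and 144. These counts moved with single libraries: they were 28 and 768 without GNP 1, 34 and 594 without GNP 3, 79 and 422 without hyperplasia 3, 43 and 503 without hyperplasia 1, 47 and 529 without hyperplasia 2, and 39 and 424 without GNP 2.

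By rank level 867 wide regions were higher in hyperplasia and 1360 lower, 6.74% and 10.6% of those tested. Over all merged regions 12.7% were called higher and 14% lower, so wide regions were called less often than the background. The median difference was 0.0056 for wide regions and 0.039 for all regions. Without GNP 2 the numbers of calls were 537 higher and 865 lower, and without GNP 1 they were 502 and 963.

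Among the regions wide in GNP and not in hyperplasia, the one at Tlx3 (chr11:33200228-33205349) had 2, 3 and 2 summits in hyperplasia, against 6, 16 and 11 in GNP. In tumor it had 5, 8 and 5, so its width there lay above all hyperplasia values and below or within those of GNP. At Fzd8, a Wnt receptor on chromosome 18, there were 4, 1 and 4 summits in hyperplasia and 10, 11 and 10 in GNP, with 1, 0 and 1 in tumor. For Nol4l (chr2:153490811-153494761) the counts were 3, 3 and 1 in hyperplasia and 5, 11 and 10 in GNP. In the reverse direction Lhx2, a LIM homeobox factor (chr2:38350067-38352185), had 6, 5 and 5 summits in hyperplasia and 2, 4 and 3 in GNP. Near Vps18, a protein of vesicle sorting (chr2:119299522-119302211), there were 6, 7 and 6 in hyperplasia and 2, 3 and 3 in GNP, and tumor kept 7, 6 and 6. At Myl9, a myosin light chain, the counts were 5, 5 and 6 in hyperplasia and 3, 3 and 4 in GNP, and at Spata2 they were 5, 5 and 5 against 3, 1 and 3 in GNP. The gains were thus small in number of summits, next to the losses at Tlx3 and Fzd8.

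Of 34 regions of neural stem cell genes 9 were higher and 0 lower, with a median of 0.37, beside 6.74% higher and 10.6% lower among all wide regions tested. At Sox1, a SoxB1 factor of neural progenitors (chr8:12394686-12397519), the rank level was 3.35, 3.34 and 2.50 in hyperplasia and 0.32, 0.32 and 0.40 in GNP, a rise of 2.72 (SE 0.31, adjusted p = 6.33e-05). At Olig2, a factor of neural and oligodendrocyte progenitors (chr16:91224926-91227185), it was 2.99, 3.67 and 3.10 in hyperplasia and 0.25, 0.79 and 0.91 in GNP, a rise of 2.60 (SE 0.31, adjusted p = 9.63e-05). Neither pair of groups overlapped. Further calls in this list were Nes, an intermediate filament of stem cells, Pou3f2 and Pou3f3, POU factors, and Olig1, with changes between 0.82 and 1.15 in their regions. The Pou3f2 call was lost without any library but hyperplasia 3. Of 2 Pou3f3 calls both were lost without GNP 3, and 1 also without GNP 1, GNP 2, hyperplasia 1 or hyperplasia 3. Olig2 and Olig1 also mark oligodendrocytes, 5 of whose 8 listed markers had a wide region, none of them in all 9 primary libraries; their part in these changes was not tested.

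Among all wide regions tested 6.74% were higher in hyperplasia than in GNP and 10.6% lower. Of 46 Hedgehog regions 1 was higher and 10 lower, with a median of -0.18, and 7 of the lower ones lay at Gli2. At Boc, a co-receptor of the ligand (chr16:44501698-44503990), the rank level was 3.24, 3.99 and 4.72 in hyperplasia and 9.33, 9.58 and 7.43 in GNP, a change of -4.80 (SE 0.58, adjusted p = 0.000101). Of the Gli2 regions 14 were tested, and 1 region of the receptor Ptch1 fell by 1.41 on the log2 scale. The 1 region that rose lay at Sufu, the restraint on Gli factors (chr19:46451358-46452924), with 4.94, 5.39 and 5.48 in hyperplasia and 2.34, 2.09 and 2.39 in GNP, a rise of 3.00 (SE 0.30, adjusted p = 3.12e-05). Each of the 5 regions assigned to Sufu was wide in only 1 library, so its width did not recur.

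Progenitor genes had 3 of 88 regions higher and 9 lower, with a median of -0.10, and maturation genes had 4 of 52 higher and 9 lower. Among all wide regions tested 6.74% were higher and 10.6% lower, and the share of lower progenitor regions lay near the latter. A region 8123 bp outside Pax6, the paired-box factor of granule neurons (chr2:105659162-105662384), had levels of 1.00, 1.65 and 1.99 in hyperplasia and 4.55, 4.50 and 3.95 in GNP, a change of -2.78 (SE 0.32, adjusted p = 7.62e-05). It also lies over the long non-coding RNAs Pax6os1 and Paupar. At Unc5c, a netrin receptor of migrating granule cells (chr3:141464330-141467425), the levels were 2.47, 2.57 and 2.71 in hyperplasia and 5.36, 6.73 and 6.34 in GNP, a change of -3.56 (SE 0.33, adjusted p = 2.28e-05). Nhlh1 and Neurod2, helix-loop-helix factors of young neurons, fell by 1.97 and 1.93. Nuclear factor I genes had 6 of 50 regions higher and 2 lower.

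The regions with the most marked changes lay elsewhere. At Kif26b, a kinesin (chr1:178626633-178627883), the rank level was 6.28, 6.48 and 7.29 in hyperplasia and 1.60, 1.87 and 1.49 in GNP, a rise of 5.03 (SE 0.33, adjusted p = 3.78e-06). At Tll1, a secreted metalloprotease (chr8:64151923-64154129), it was 7.96, 8.55 and 7.23 in hyperplasia and 3.44, 3.01 and 2.73 in GNP, a rise of 4.85 (SE 0.38, adjusted p = 9.38e-06). At Elovl6, a fatty acid elongase (chr3:129535082-129536381), it was 0.00, 0.00 and 0.22 in hyperplasia and 5.89, 6.16 and 5.64 in GNP, a change of -5.82 (SE 0.25, adjusted p = 4.87e-07). A region with no protein-coding gene within 100 kb (chr3:139886031-139887405) had 3.12, 4.40 and 4.43 in hyperplasia and 11.75, 12.29 and 11.32 in GNP, a change of -7.81 (SE 0.44, adjusted p = 2.21e-06), and tumor libraries had 3.43, 3.45 and 3.81 there.

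**Figure D3:**
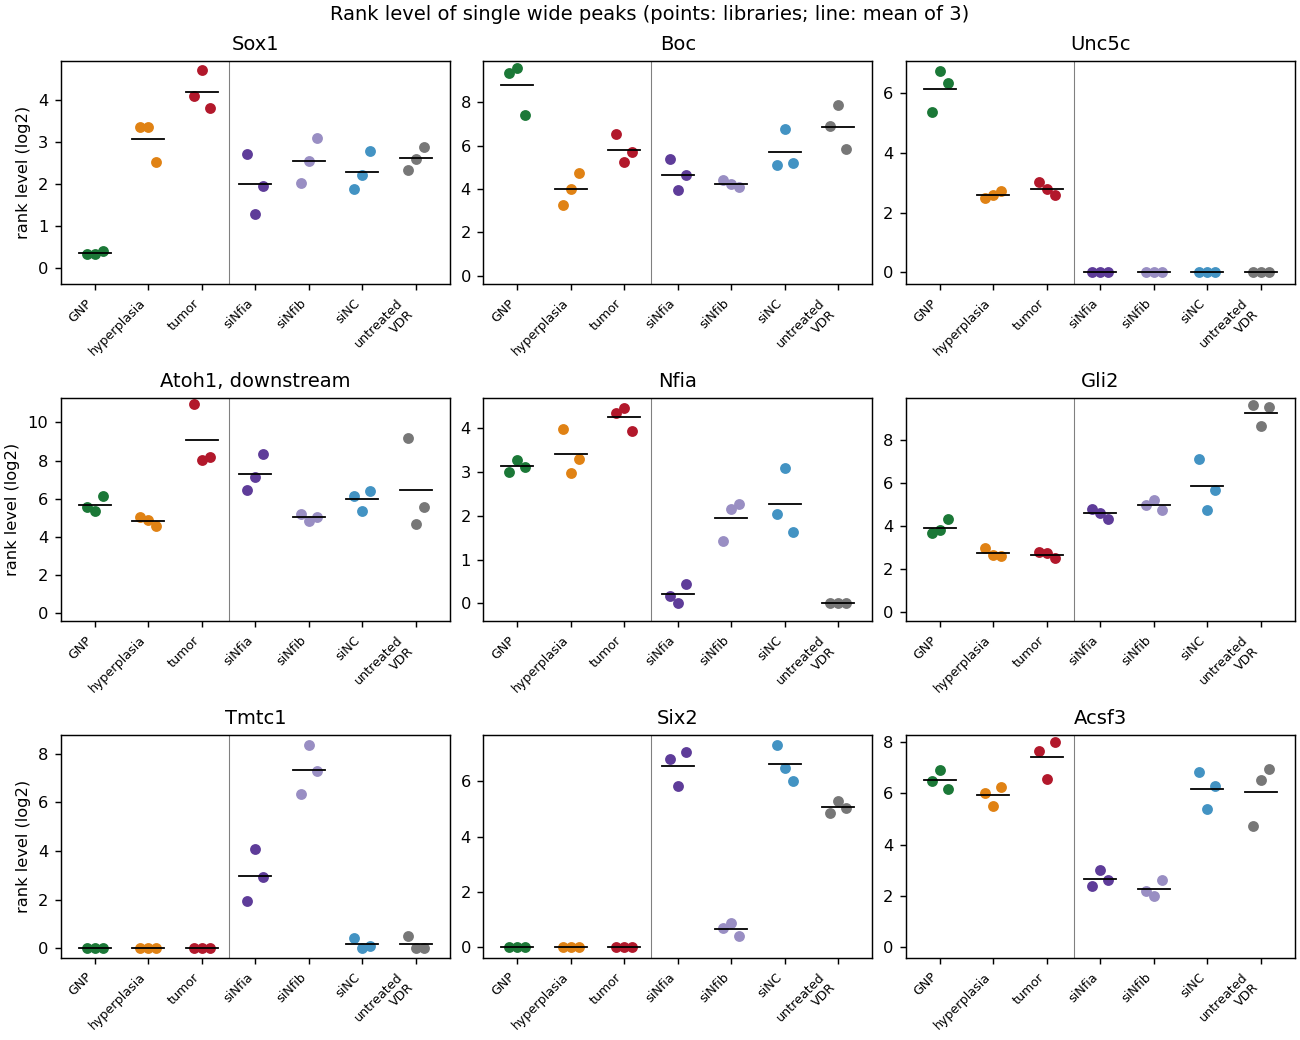
Rank level (log2 of 100000 over the rank of the strongest summit, 0 where none was kept) in each library for 9 wide regions; points are libraries and bars are group means. Sox1 stands higher in hyperplasia and tumor than in GNP, Boc and Unc5c stand lower, and Tmtc1, Six2 and Acsf3 differ between treated VDR groups.

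Tumor was compared with hyperplasia next. Regions at the Hedgehog genes Sufu, Ptch1 and Gli2 had higher ranks in tumor, and regions on chromosome 6 did so across the chromosome. The Sufu regions were each wide in only 1 of the 21 libraries. In all 3 tumor libraries and no hyperplasia library 73 regions were wide (0.546%), and 22 were wide in all 3 hyperplasia libraries and no tumor library (0.164%), with 738 wide in all 6. From the 100000 strongest summits the 2 counts were 41 and 26. Without tumor 3 the counts were 271 and 32, without tumor 1 they were 239 and 33, and without tumor 2 they were 105 and 95. Without hyperplasia 3 they were 108 and 96, without hyperplasia 1 they were 116 and 57, and without hyperplasia 2 they were 157 and 54. By rank level 1247 regions were higher in tumor and 524 lower, 9.69% and 4.07% of those tested, against 8.02% and 6.72% of all merged regions. The numbers of lower calls were 291 without tumor 3, 327 without hyperplasia 1, 340 without hyperplasia 2 and 342 without tumor 1.

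Chromosome 6 held 376 of the 1247 higher calls. Of its 949 tested regions 376 were higher in tumor and 7 lower, with a median change of 0.86, and against GNP 431 were higher and 18 lower, with a median of 0.89. Tumor libraries had 7.47 ± 1.04% of their wide peaks on this chromosome, hyperplasia libraries 4.76 ± 0.16% and GNP libraries 4.84 ± 0.24% (SD, n = 3 each). Of all peaks, 6.95 ± 0.98% lay there in tumor, 5.31 ± 0.06% in hyperplasia and 5.26 ± 0.05% in GNP. The higher share in tumor was thus not particular to wide peaks. Leaving chromosome 6 out left 871 higher and 517 lower of 11918 regions in tumor against hyperplasia, and 1043 and 1006 in tumor against GNP, where all chromosomes gave 1474 and 1024. The cause of the shift was not tested, and values of single regions on chromosome 6 are best read relative to it.

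**Figure D4:**
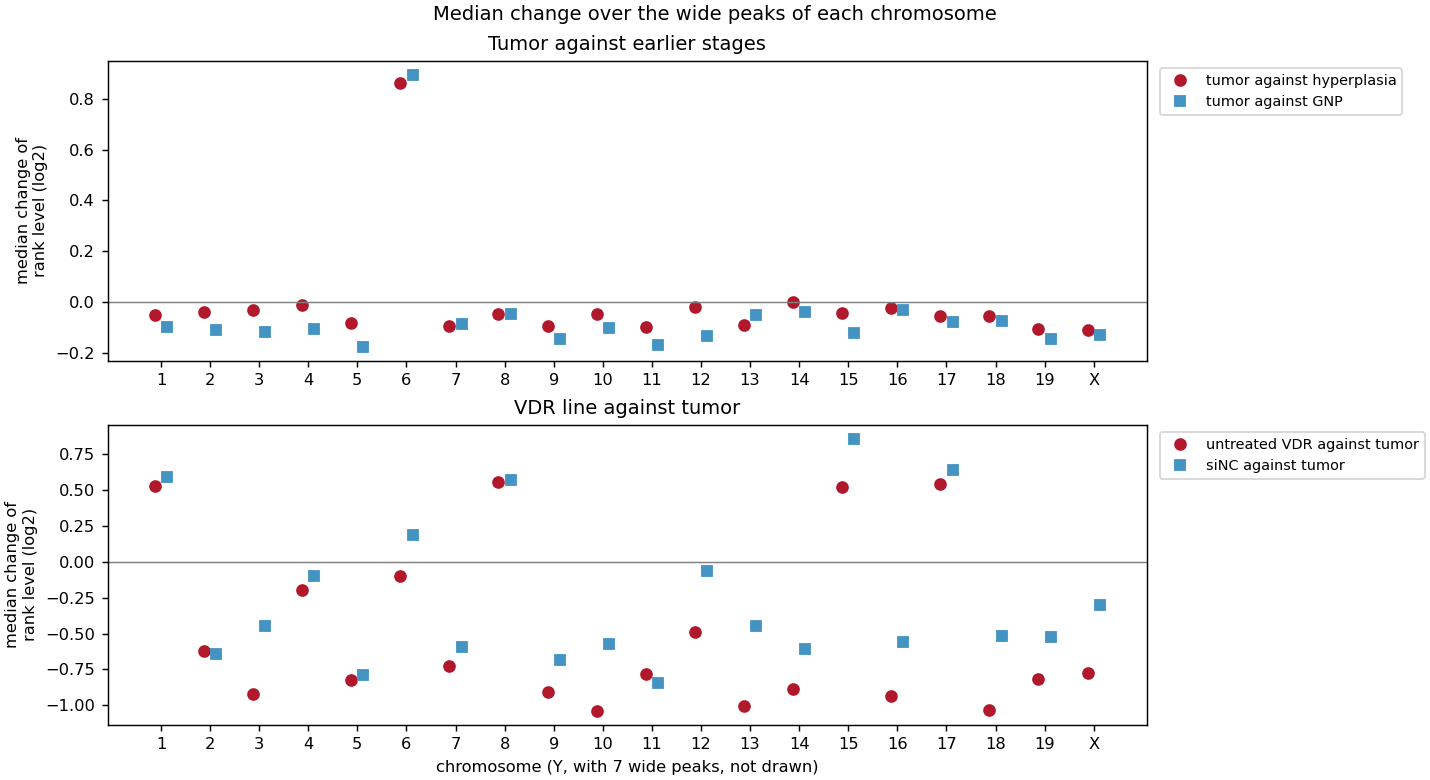
Median difference in rank level (log2, vertical axis) of the tested wide regions on each chromosome (horizontal axis, Y not drawn), for tumor against hyperplasia, tumor against GNP, untreated VDR against tumor and siNC against tumor. Chromosome 6 stands at 0.86 and 0.89 in the tumor comparisons, and chromosomes 1, 8, 15 and 17 stand above 0 in both comparisons of the line with tumor.

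Among all wide regions tested 9.69% were higher in tumor than in hyperplasia and 4.07% lower. Of Hedgehog regions 10 of 46 were higher and 0 lower, with a median of 0.35. The calls lay at Sufu, Ptch1, Gli2, Boc and Cdon, a further co-receptor. At Boc the call was lost without any library but hyperplasia 2, and at 1 of 2 Ptch1 regions without hyperplasia 2, tumor 2 or tumor 3. Of 3 Sufu calls 1 was lost without hyperplasia 1, hyperplasia 2, tumor 1 or tumor 3 and another without hyperplasia 1 or tumor 1. A Gli2 region (chr1:119022065-119023784) had levels of 4.50, 4.51 and 4.12 in tumor and 1.59, 2.41 and 2.86 in hyperplasia, a rise of 2.09 (SE 0.32, adjusted p = 0.00153). GNP libraries had 4.01, 3.75 and 4.03 at the same region, so the tumor values lay above both groups and nearest to GNP.

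Progenitor regions were higher in 10 of 88 cases and lower in 2, shares near the 9.69% and 4.07% of all wide regions tested. Of 4 wide regions assigned to Atoh1, on chromosome 6, 2 lay at or just beyond the gene. The downstream one (chr6:64731443-64735637) had levels of 10.97, 8.04 and 8.20 in tumor and 5.03, 4.91 and 4.58 in hyperplasia, a rise of 4.23 (SE 0.64, adjusted p = 0.00153), with 5.57, 5.36 and 6.16 in GNP. The one at the start (chr6:64727109-64730864) had 7.75, 16.61 and 7.41 in tumor and 5.24, 5.03 and 5.36 in hyperplasia, and tumor 2 held its top summit of the whole list there. That region missed the threshold against hyperplasia (adjusted p = 0.055) and passed it against GNP (adjusted p = 0.0311), a call lost when any GNP library was left out. At Nhlh1 (chr1:172056094-172059369) the levels were 5.95, 4.17 and 5.25 in tumor and 3.57, 3.25 and 2.37 in hyperplasia, a rise of 2.06 (SE 0.44, adjusted p = 0.00859). Regions at Pax6, Hes5, Zic5 and Barhl1 rose as well, by 1.17 to 2.14. The calls were lost at Barhl1 without hyperplasia 1 or 3 or tumor 1 or 3 and at Zic5 without hyperplasia 1 or 2 or tumor 1. A region at Ccnd2, cyclin D2, on chromosome 6, rose by 1.82. In the neural stem cell list 3 of 34 regions were higher and 2 lower, both lower ones at Pax3, a paired-box factor, with changes of -2.25 and -1.24. Each Pax3 region was wide in only 1 library.

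Further lists stand beside the same shares of all wide regions tested, 9.69% higher in tumor than in hyperplasia and 4.07% lower. Of 25 cell cycle regions 1 was higher in tumor, at Mcm5, a helicase subunit, with 1.13, and 0 were lower. Among maturation genes 8 of 52 regions were higher and 2 lower, and 2 of the higher ones lay at Cdkn1b, an inhibitor of cyclin-dependent kinases on chromosome 6, with 2.34 and 1.64. AP-1 genes had 1 of 24 regions higher and 3 lower, with Fos down by 2.95 and Junb by 1.01. The Mcm5 call was lost without hyperplasia 1 or 2 or tumor 2 or 3, and that at Junb without any library but tumor 1. Genes of the list of Purkinje cell and interneuron markers had 5 of 11 regions higher and 0 lower. Of these, 3 lay at Lhx1, a LIM homeobox factor also found outside Purkinje cells, and 2 at Foxp2, on chromosome 6. At Lhx1 1 call was lost without hyperplasia 1, tumor 2 or tumor 3 and another without hyperplasia 1 or 3 or tumor 1 or 3, and at Foxp2 1 was lost without hyperplasia 2 or 3 or tumor 1 or 2. Of the 12 Purkinje cell and interneuron markers 4 had wide regions, none of them in all 9 primary libraries. The part of such cells in the tumor profile was not tested.

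The largest rank changes of tumor over hyperplasia lay on chromosome 6 as well. Near Slc2a3, a neuronal glucose transporter (chr6:122810170-122812368), the levels were 11.25, 10.83 and 12.91 in tumor and 7.63, 7.46 and 6.54 in hyperplasia, a rise of 4.45 (SE 0.71, adjusted p = 0.00199). At Bmt2 (chr6:13677041-13678915) they were 10.48, 11.70 and 11.61 in tumor and 6.90, 7.03 and 7.25 in hyperplasia, a rise of 4.20 (SE 0.55, adjusted p = 0.000715). At Magi1, a scaffold of cell junctions (chr6:93819530-93821859), they were 8.02, 8.96 and 9.57 in tumor and 4.20, 4.51 and 5.35 in hyperplasia, a rise of 4.16 (SE 0.47, adjusted p = 0.000363). On another chromosome, Tll1 fell, with 5.01, 4.55 and 4.22 in tumor against 7.96, 8.55 and 7.23 in hyperplasia (change -3.32, SE 0.38, adjusted p = 0.000392).

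By summit number, Msi1, an RNA-binding protein of neural stem cells (chr5:115434105-115438188), had 6, 11 and 7 summits in tumor and 3, 4 and 4 in hyperplasia, with 4, 15 and 9 in GNP. Sema7a, a membrane semaphorin, had 6, 7 and 7 near its gene in tumor and 2, 3 and 1 in hyperplasia, and Rflna had 8, 9 and 6 against 3, 3 and 3. Mgll, the lipase of monoacylglycerols, had 6, 7 and 5 in tumor and 1, 3 and 3 in hyperplasia. Dll1, a Notch ligand (chr17:15374804-15377066), went the other way, with 3, 4 and 2 summits in tumor and 7, 6 and 5 in hyperplasia. So did Odf2, a protein of centriole appendages, with 3, 3 and 3 against 5, 6 and 6, and Enc1, an actin-associated protein of neurons, with 2, 3 and 4 in tumor against 6, 5 and 5 in hyperplasia.

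Tumor against GNP shares tumor and GNP libraries with the comparisons above, so their values are set side by side only. In all 3 tumor libraries and no GNP library 33 regions were wide (0.247%), and 209 were wide in all 3 GNP libraries and no tumor library (1.56%), with 1033 wide in all 6. Without tumor 2 the counts were 62 and 589, without GNP 1 they were 49 and 522, without GNP 3 they were 54 and 397, without tumor 3 they were 137 and 244, without tumor 1 they were 106 and 260, and without GNP 2 they were 72 and 276. By rank level 1474 regions were higher (11.5% of those tested, against 12.9% of all merged regions) and 1024 lower (7.96% against 12.1%). The calls numbered 1587 in all without GNP 1 and 1635 without GNP 2. There were 115 regions wide in all GNP libraries and in no hyperplasia or tumor library.

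Slit2, a guidance ligand of Robo receptors (chr5:47982833-47986160), had 3, 2 and 1 summits in tumor and 11, 12 and 6 in GNP. A region near Actg1, a cytoplasmic actin (chr11:120342853-120345642), had 2, 1 and 1 in tumor and 9, 9 and 9 in GNP. In the treated line that region was again wide in 8 of 9 libraries, with 8, 10 and 9 summits with siNC. Tspan11 on chromosome 6 had 8, 7 and 6 summits near its gene in tumor and 1, 1 and 2 in GNP, Mturn on the same chromosome had 5, 7 and 5 against 2, 4 and 1, and Celf4, a splicing factor of neurons, had 5, 5 and 5 in tumor against 2, 2 and 1 in GNP.

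Sox1 had rank levels of 4.08, 4.70 and 3.79 in tumor and 0.32, 0.32 and 0.40 in GNP, a rise of 3.84 (SE 0.31, adjusted p = 1.59e-05). Sufu had 6.20, 5.95 and 6.76 in tumor and 2.34, 2.09 and 2.39 in GNP, a rise of 4.03 (adjusted p = 1.18e-05). Boc had 6.51, 5.23 and 5.70 in tumor, against 9.33, 9.58 and 7.43 in GNP (change -2.96, SE 0.58, adjusted p = 0.0027). Unc5c had 3.03, 2.78 and 2.57 in tumor and 5.36, 6.73 and 6.34 in GNP (change -3.35, adjusted p = 4.51e-05). At these genes tumor and hyperplasia lay on the same side of GNP. Nuclear factor I regions were higher in tumor in 13 of 50 cases and lower in 3, and neural stem cell regions in 9 and 4 of 34. Progenitor regions were so in 14 and 6 of 88, maturation regions in 11 and 8 of 52 and Hedgehog regions in 7 and 7 of 46. Beside these stand 11.5% higher and 7.96% lower among all wide regions tested, and 12.9% and 12.1% of all merged regions. Regions of 1 gene share a locus and are not independent of each other.

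In the VDR line, siNfia was compared with siNC to see which regions differed under the treatment named after Nfia. Few did. In all 3 siNfia libraries and no siNC library 17 regions were wide (0.127%), and 29 were wide in all 3 siNC libraries and no siNfia library (0.217%), with 300 wide in all 6. The counts rested on single libraries: without siNC 1 they were 17 and 379, without siNfia 2 they were 100 and 46, without siNfia 3 they were 24 and 88, without siNC 2 they were 38 and 82, without siNC 3 they were 82 and 46, and without siNfia 1 they were 40 and 46. By rank level 66 of 12263 regions were higher and 124 lower, 0.538% and 1.01%, against 1.37% and 0.971% of all merged regions. Leaving out any library gave 27 to 55 higher and 58 to 70 lower.

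Among members of the listed genes, an Nfia region (chr4:97996611-97997575) had levels of 0.18, 0.00 and 0.43 with siNfia and 2.04, 3.09 and 1.63 with siNC, a change of -2.05 (SE 0.43, adjusted p = 0.0247). The call was lost without siNC 2 or any siNfia library. An Nfib region (chr4:82491654-82492981) had 0.64, 0.74 and 0.12 with siNfia and 1.90, 2.41 and 2.09 with siNC, a change of -1.63 (SE 0.36, adjusted p = 0.0316), lost without siNC 2, siNC 3, siNfia 1 or siNfia 3. These were the 2 calls among 56 regions of the family, and none was higher. Among all wide regions tested 0.538% were higher and 1.01% lower. Nhlh1 had 3.22, 4.12 and 2.64 with siNfia and 5.40, 5.36 and 5.42 with siNC, a change of -2.07 (SE 0.44, adjusted p = 0.0269), the 1 call among 78 progenitor regions, lost without any siNC library or without siNfia 1 or 3. In other lists Atf3, a stress-induced bZIP factor, rose by 2.70, Mcm2, a subunit of the replicative helicase, fell by 1.98, and 1 of 43 Hedgehog regions rose. The Hedgehog call, at Gli2, was lost without siNC 1, siNC 3, siNfia 1 or siNfia 3.

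Larger changes lay outside the lists. At Acsf3, a mitochondrial acyl-CoA synthetase (chr8:122768681-122770507), the levels were 2.41, 3.03 and 2.61 with siNfia and 6.85, 5.40 and 6.27 with siNC, a change of -3.49 (SE 0.43, adjusted p = 0.00495). At Podxl, a sialomucin (chr6:31600447-31601803), they were 6.92, 6.66 and 6.78 with siNfia and 3.10, 3.08 and 3.09 with siNC, a rise of 3.69 (SE 0.35, adjusted p = 0.000598). A region on chromosome 15 with no protein-coding gene within 100 kb (chr15:64532237-64533893) had 6.73, 6.61 and 8.63 with siNfia and 3.42, 4.34 and 4.05 with siNC, a rise of 3.39 (SE 0.51, adjusted p = 0.00867). None of these groups overlapped. By summit number, Klf9, a Krüppel-like factor (chr19:23140311-23143652), had 6, 6 and 7 with siNfia and 2, 3 and 4 with siNC, while Notch1 (chr2:26499952-26502967) had 3, 3 and 4 with siNfia and 6, 5 and 8 with siNC. A region in Cacna1c, a calcium channel (chr6:118937735-118940517), had 3, 2 and 4 with siNfia and 6, 10 and 9 with siNC.

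The siNfib libraries differed from siNC at more regions. In all 3 siNfib libraries and no siNC library 193 regions were wide (1.44%), and 5 were wide in all 3 siNC libraries and no siNfib library (0.0374%), with 458 wide in all 6. From the 100000 strongest summits the 2 counts were 145 and 14. Without siNC 3 the counts were 634 and 8, without siNfib 1 they were 590 and 7, without siNfib 2 they were 588 and 11, without siNC 2 they were 296 and 20, without siNfib 3 they were 230 and 28, and without siNC 1 they were 207 and 91. By rank level 522 regions were higher and 646 lower, 4.26% and 5.27%, against 7.4% and 5.64% of all merged regions. Leaving out siNfib 1, 2 or 3 gave 315 and 376, 316 and 382, or 305 and 386.

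Of 56 Nuclear factor I regions 0 were called higher and 5 lower, with a median of -0.28. Among all wide regions tested 4.26% were higher and 5.27% lower, with a median of 0.04. The calls lay at Nfia, Nfib and Nfix, and regions of 1 gene are not independent of each other. An Nfia region (chr4:97618175-97619423) had levels of 2.21, 2.02 and 2.48 with siNfib and 3.99, 6.76 and 4.65 with siNC, a change of -2.89 (SE 0.59, adjusted p = 0.00507). Another Nfia region (chr4:97910089-97911445) had 1.80, 2.14 and 3.04 with siNfib and 4.92, 5.27 and 4.08 with siNC, a change of -2.43 (SE 0.50, adjusted p = 0.005). The other 3 were 2 at Nfib, with changes of -2.57 and -1.86, and 1 at Nfix, with -2.01. At Nfib the first call was lost without siNC 1, siNC 2, siNfib 1 or siNfib 2 and the second without siNC 2, siNfib 1 or siNfib 2, and at Nfix without siNC 2, siNC 3, siNfib 2 or siNfib 3.

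Calls at progenitor, stem cell and chromatin genes were few in number. In each of these lists the share of higher calls lay above the 4.26% of all wide regions tested. The share of lower calls lay below their 5.27%. Over all merged regions 7.4% were higher and 5.64% lower, and the lists were given no test. Of 78 progenitor regions 4 were higher, with changes of 2.28 at Sox4, 1.59 at Zic1 and 1.25 at Zic4 among them, and 1 was lower. Of 27 neural stem cell regions 3 were higher, 2 at Pou3f3 with 2.57 and 2.49 and 1 at Nes with 1.28, and 0 were lower. Of 37 chromatin regions 3 were higher, at Tet3, which oxidises methylcytosine, Chd7, a remodeller, and Kdm6a, a histone demethylase, with 2.49, 1.69 and 1.43. Myc and Cdk6 rose by 1.47 and 0.81. Several of these calls were lost when 1 library was left out: at Zic1 without siNC 1, siNC 2, siNfib 1 or siNfib 2 and at Zic4 without siNC 1 or any siNfib library. The same held at 1 Pou3f3 region without siNC 1, siNC 2 or siNfib 1, at Nes without siNC 2, siNC 3, siNfib 1 or siNfib 3, at Kdm6a without siNC 2, siNC 3, siNfib 2 or siNfib 3, and at Myc without siNC 3, siNfib 1 or siNfib 2. Of 43 Hedgehog regions 1 was higher and 3 lower. The Gli2 region described above had 3.65, 4.01 and 3.39 with siNfib and 7.61, 8.21 and 6.06 with siNC, a change of -3.61 (SE 0.56, adjusted p = 0.000855), and siNfia libraries had 7.91, 6.58 and 7.68.

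At Tmtc1, a mannosyltransferase of the endoplasmic reticulum (chr6:148365192-148367936), there were 5, 7 and 8 summits with siNfib and 1, 1 and 2 with siNC. Its rank level was 6.33, 8.38 and 7.31 with siNfib and 0.42, 0.00 and 0.10 with siNC, a rise of 7.16 (SE 0.57, adjusted p = 1.15e-05). With siNfia it was 1.92, 4.08 and 2.95, a rise of 2.81 over siNC (adjusted p = 0.0227) that was lost when any siNC library, siNfia 2 or siNfia 3 was left out. A region of Tle1, a Groucho corepressor (chr4:72167344-72168670), had 6.20, 6.53 and 6.92 with siNfib and 0.47, 0.44 and 0.21 with siNC, a rise of 6.18 (SE 0.41, adjusted p = 4.66e-06). At Pkdcc, a secreted tyrosine kinase (chr17:83200136-83201457), the levels were 5.05, 5.40 and 5.69 with siNfib and 0.00, 0.00 and 0.23 with siNC, a rise of 5.30 (SE 0.37, adjusted p = 5.71e-06).

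Six2, a homeobox factor (chr17:85703768-85705095), lost rank, with 0.68, 0.85 and 0.40 with siNfib and 7.34, 6.50 and 6.01 with siNC, a change of -5.98 (SE 0.46, adjusted p = 8.52e-06). The siNfia libraries had 6.80, 5.85 and 7.06 there, within or near the siNC values. At Sh3gl2, an endophilin of synaptic vesicles (chr4:85260450-85262606), the levels were 2.86, 2.67 and 4.12 with siNfib and 9.05, 7.83 and 9.95 with siNC, a change of -5.72 (SE 0.60, adjusted p = 7.07e-05). Acsf3 had 2.20, 2.00 and 2.63 with siNfib, a change of -3.90 from siNC (SE 0.43, adjusted p = 9.78e-05), next to the siNfia levels given above. Podxl had 1.36, 0.97 and 1.03 with siNfib, a change of -1.97 (SE 0.35, adjusted p = 0.00199), while its siNfia level was above siNC. Both contrasts share the siNC libraries. By summit number, Rnf220, a ubiquitin ligase, had 7, 7 and 5 with siNfib and 1, 2 and 1 with siNC, and Wiz, a zinc finger protein, had 4, 1 and 3 with siNfib and 5, 5 and 5 with siNC.

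Untreated VDR was compared with tumor to set the line against the primary cancer. Summit numbers were far lower in untreated VDR: no region was wide in its 3 libraries and in no tumor library (0%), while 1299 were wide in all 3 tumor libraries and no untreated VDR library (9.71%), with 4 wide in all 6. From the 100000 strongest summits of each library the 2 counts were 0 and 860. Without tumor 1 the counts were 1 and 1947, and without tumor 3 they were 0 and 2006. By rank level 1398 of 12986 regions were higher and 3068 lower, 10.8% and 23.6%, against 9.58% and 26.6% of all merged regions. Leaving out tumor 1, 2 or 3 gave 785 and 1602, 796 and 1498, or 797 and 1624. When a kept summit was required in every library, 8522 wide regions were tested. Of these, 1060 (12.4%) were higher and 1185 (13.9%) lower, beside 12.7% and 12.4% of all merged regions. This filter removes regions with no kept summit in some library, so it cannot show where the lower calls came from, and their cause was not tested. The median difference was -0.42 for wide regions and -0.23 for all regions.

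At Cdk6 (chr5:3340698-3344785) untreated VDR had 1, 1 and 1 summits and tumor 13, 15 and 13, while Mex3b, an RNA-binding protein (chr7:82864773-82870685), had 2, 2 and 3 in untreated VDR and 16, 15 and 13 in tumor. At Prmt8 (chr6:127765821-127770040) untreated VDR had 0, 1 and 0 summits and tumor 14, 15 and 13. With siNC Cdk6 had 4, 8 and 13 summits, so it was wide in siNC 2 and siNC 3 but not in siNC 1, and Prmt8 had 1, 1 and 1. The printed start of Prmt8, with 44 CpGs, thus lay in a region that was wide in tumor and had at most 1 summit in untreated VDR and with siNC.

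Among regions at progenitor, stem cell and chromatin genes, more were lower than higher in untreated VDR, as among all wide regions tested. Of all those, 10.8% were higher and 23.6% lower, with a median of -0.42. Untreated VDR had 2 of 86 progenitor regions higher than tumor and 30 lower (median -0.63). For neural stem cell regions these were 2 and 13 of 31 (median -0.87), and for chromatin regions 1 and 16 of 41 (median -0.91). Other lists fell as well, with 1 of 15 tumour suppressor regions higher and 7 lower (median -1.30). Regions of Purkinje cell and interneuron markers had 0 and 5 of 9 (median -2.31). At Pou3f2 (chr4:22486816-22490577) the level was 1.73, 0.00 and 0.00 in untreated VDR, against 8.11, 5.54 and 7.19 in tumor (change -6.37, SE 0.78, adjusted p = 0.000393). Calls lower by more than 3 were also made at Olig2, Insm1, a zinc finger factor of neuronal progenitors, Sox11, Chd7 and the Hedgehog co-receptors Cdon and Gas1. All 12 libraries of the line stood at 0 at the Olig2 and Unc5c regions described above. Higher in untreated VDR was a region 53948 bp outside Hoxc4 (chr15:103089952-103091657), with 4.86, 4.81 and 3.66 against 0.00, 0.08 and 0.56 in tumor (change 4.23, SE 0.45, adjusted p = 0.000257). Among fibroblast genes 3 of 9 regions were higher and 2 lower, with Prrx1, a mesenchymal homeobox factor, at 3.74. Wide regions were assigned to 6 of the 12 fibroblast markers, and their part in the comparison was not tested.

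Of 48 Hedgehog regions 17 were higher in untreated VDR and 10 lower, beside 10.8% higher and 23.6% lower among all wide regions tested. Of the 17 higher calls 16 lay at Gli2, the main activator of Hedgehog targets, and the 10 lower ones all lay at other genes of the list. Its 17 regions spread over chr1:118863557-119082994, in and beside a gene body of 220345 bp. In untreated VDR 16 of the 17 were higher than in tumor and 0 lower, with changes between 0.83 and 6.56 and a median of 4.17. Group medians over the 17 regions were 7.16 in untreated VDR, 4.23 with siNC, 3.57 with siNfia, 3.31 with siNfib, 2.69 in tumor, 2.29 in hyperplasia and 3.07 in GNP. The region with the largest change (chr1:118916240-118918618) had 9.60, 8.64 and 9.51 in untreated VDR and 2.81, 2.74 and 2.51 in tumor, a rise of 6.56 (SE 0.61, adjusted p = 0.00022). Summit numbers at Gli2 did not follow, with a mean of 2.53 in untreated VDR and 2.55 in tumor. The regions share a locus and are not independent of each other.

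Whole chromosomes also differed between the line and tumor. With siNC 769 of 3320 regions on chromosomes 1, 8, 15 and 17 were higher and 251 lower, with a median of 0.68. On the chromosomes other than these and 4, 6, 12 and Y, 300 of 7093 were higher and 1720 lower, with a median of -0.62. These sets of chromosomes were chosen after their medians were seen. The Y chromosome had 7 wide regions, 6 higher in untreated VDR and 7 higher with siNC than in tumor. Gli2 lies on chromosome 1, whose median was 0.53 in untreated VDR against tumor, well under the 4.17 of its own regions. The cause of these shifts was not tested.

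The siNC libraries were compared with tumor, and with untreated VDR, as the treated line. Against tumor 118 regions were wide in all siNC and no tumor libraries (0.882%), 348 in all tumor and no siNC libraries (2.6%), and 231 in all 6. Without siNC 1 the counts were 556 and 350, without siNC 3 they were 148 and 659, without siNC 2 they were 188 and 411, without tumor 1 they were 138 and 673, without tumor 3 they were 133 and 672, and without tumor 2 they were 191 and 393. By rank level 1549 regions were higher and 2430 lower, 11.9% and 18.7%, against 9.52% and 23.1% of all merged regions. With a kept summit in every library 1171 were higher and 1088 lower, beside 12.9% and 12.2% of all merged regions, so the balance depended on that filter. Leaving out tumor 1, 2 or 3 gave 756 and 1124, 765 and 1060, or 736 and 1061. At Chd7, a chromatin remodeller (chr4:8689388-8692326), siNC had 0, 1 and 1 summits and tumor 11, 10 and 9. At Ccnd2 (chr6:127149402-127153728) siNC had 1, 1 and 3 and tumor 15, 9 and 8, and at Erbb4, a neuregulin receptor (chr1:69105231-69108771), siNC had 1, 4 and 4 and tumor 13, 11 and 11.

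A region 8226 bp outside Tubb3, neuronal tubulin (chr8:123426364-123434118), had 12, 11 and 11 summits with siNC and 0 in each of the 9 primary libraries, with 2, 3 and 4 in untreated VDR. At Sfi1, a centrosome protein (chr11:3184394-3199869), siNC had 45, 42 and 50 summits, untreated VDR 22, 44 and 24, and tumor 26, 4 and 4. Near Ly6c2, a surface protein (chr15:75085543-75086864), the rank level was 12.80, 12.70 and 12.15 with siNC and 12.36, 11.52 and 11.97 in untreated VDR, against 2.03, 0.13 and 0.50 in tumor (changes 11.67 and 11.07, adjusted p = 8.47e-05 and 7.64e-05). At Cacna1c (chr6:118965625-118967129) it was 9.23, 9.01 and 8.50 with siNC and 9.91, 6.54 and 7.64 in untreated VDR, with 0 in all 3 tumor libraries. At Tspan9, a tetraspanin (chr6:127992334-127994200), siNC had 2.30, 2.92 and 2.19, untreated VDR 3.16, 3.59 and 2.67 and tumor 10.78, 8.58 and 11.48. Treated and untreated libraries of the line thus lay on the same side of tumor at these regions.

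Against untreated VDR, 506 regions were wide in all siNC and no untreated VDR libraries (3.78%) and none the other way (0%), with 5 wide in all 6. Without siNC 1 the first count was 1785. By rank level 665 regions were higher and 384 lower, 5.12% and 2.96%, against 6.16% and 4.39% of all merged regions. With a kept summit in every library 296 were higher and 280 lower, beside 3.19% and 3.54% of all merged regions. Leaving out siNC 1, 2 or 3 gave 401 and 199, 304 and 158, or 287 and 131. Hedgehog regions were higher in 2 of 48 cases and lower in 14, all 14 of them at Gli2, where the median change was -3.10.

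Near Resf1, a silencer of retroelements (chr6:149354362-149355723), the level was 8.54, 9.29 and 7.86 with siNC and 3.62, 3.59 and 3.12 in untreated VDR, a rise of 5.12 (SE 0.44, adjusted p = 0.00394). At Mdga1 (chr17:29882822-29890273) it was 5.97, 5.76 and 4.81 with siNC and 10.97, 10.18 and 10.07 in untreated VDR, a change of -4.89 (SE 0.50, adjusted p = 0.00394). Tumor libraries had 4.99, 4.75 and 5.59 at Mdga1, so untreated VDR stood above both other groups of the fit. By summit number, a second Tle1 region (chr4:72197043-72202226) had 8, 14 and 15 with siNC and 1, 3 and 2 in untreated VDR. A region near Alyref2, an RNA export adaptor (chr1:171497450-171504237), had 11, 14 and 19 with siNC and 2, 3 and 4 in untreated VDR. Rdm1 (chr11:101626792-101633379) had 13, 12 and 16 with siNC and 3, 3 and 4 in untreated VDR. The Alyref2 and Rdm1 regions also lie over annotated small nuclear RNA genes, LOC115487699 and LOC115487916. Many such genes have near copies in the genome, so the values at both regions are uncertain. The labels do not say how the untreated libraries were handled relative to siNC, so treatment and library set cannot be told apart.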

How the data were processed

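Open chromatin was measured by Omni-ATAC in 21 libraries, 3 in each of 7 groups. Per the submitters' processing notes, Bowtie2, Picard and MACS2 were used with build mm10, no versions being given. The deposited files are MACS2 summit lists, in which each score is a −log10 p or q value that the authors obtained per library (which of both is not stated). Filters, pooling and the handling of repeats are not stated either, and no read depth is given.

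Summits were grouped by peak name and spans with 5 or more summits were merged across libraries (Python 3.11.15, pandas 2.3.3). The members, gene lists and comparisons were chosen with earlier results of these data known. Other summits were widened by 250 bp on each side and merged. Rank levels from the 100000 strongest summits per library were fitted with limma 3.58.1 in R 4.3.3, with a mean-variance trend, in 3 separate fits (GNP, hyperplasia and tumor; siNfia, siNfib and siNC; tumor, siNC and untreated VDR), without a replicate term, and p-values were adjusted by Benjamini-Hochberg over all merged regions tested. The fit was tested on simulated data. A region was named by the smallest protein-coding gene body holding its centre, or else the nearest within 100 kb; the planned rule of the nearest start was replaced because the start table covers 17492 genes, and 8533 regions have the same gene under both. Named regions were those with the most summits, those wide in the most libraries, up to 4 per direction and comparison with the largest difference in summits, up to 5 with the largest called change in rank level, and those at listed genes, some added after their values were seen. Alternatives were 4 or 6 summits, 100000 or 50000 summits, spans within 500 bp merged, no filter, no trend, a replicate block, each library left out and, chosen after seeing the data, a kept summit in every library and chromosome 6 left out. Results at some genes are not reported here.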

Additional observations from a re-analysis of the deposited data

How the results depend on the processing

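With 4 or more and with 6 or more summits there were 22760 and 7815 regions, and 7519 from the 100000 strongest summits, against 13375. Regions wide in all libraries of one group and none of the other numbered 691 and 200 under these 2 rules for hyperplasia against GNP (358 with 5), 220 and 47 for tumor against hyperplasia (95), 468 and 113 for tumor against GNP (242), 99 and 17 for siNfia (46), 433 and 118 for siNfib (198), 3157 and 552 for untreated VDR against tumor (1299), 921 and 264 for siNC against tumor (466), and 1316 and 214 for siNC against untreated VDR (506). From the 100000 strongest summits, a setting added for these counts after seeing the data, they were 174, 67, 170, 42, 159, 860, 422 and 429 in the same order. Mean wide peaks per library were 9053 and 2265.33 in GNP, 5837.33 and 1274.33 in hyperplasia, 7237 and 1637.67 in tumor, 4466.67 and 968.333 with siNfia, 226.667 and 19 in untreated VDR, and, with 4 or more, 9053.33 with siNfib and 5544 with siNC; from the 100000 strongest summits they were 2300 in GNP, 1824.33 in hyperplasia and 1896 in tumor. By rank level, no filter gave 34 calls for siNfia (190 with it), 2758 for untreated VDR against tumor (4466), 2260 for siNC against tumor (3979) and 265 for siNC against untreated VDR (1049). A kept summit in every library gave 2245, 2259 and 576 for the last 3, where fewer regions were tested. Leaving out 1 library gave 1402 to 2197 calls for hyperplasia against GNP, 1189 to 1975 for tumor against hyperplasia, 1587 to 2193 for tumor against GNP, 85 to 118 for siNfia, 691 to 1011 for siNfib, 2294 to 4802 for untreated VDR against tumor, 1797 to 3075 for siNC against tumor and 418 to 1441 for siNC against untreated VDR. Regions wide in one group only were then 463 to 796, 173 to 303, 348 to 651, 86 to 396, 258 to 642, 1307 to 2006, 584 to 906 and 513 to 1785 in the same order, and mean wide peaks 3909.5 to 5049.5 in GNP, 2556 to 2984 in hyperplasia, 2561 to 3907 in tumor, 1625 to 2502.5 with siNfia, 3575.5 to 5668 with siNfib, 1800.5 to 3677 with siNC and 47 to 66.5 in untreated VDR. Deviations of libraries from their group mean correlated between -0.0655 and 0.0734 over all pairs, and between -0.0468 and 0.0389 over same-numbered pairs. Same-numbered pairs were all positive for tumor against hyperplasia and for siNfia and siNfib against siNC. Whether the numbers pair the libraries weakly thus stays unknown. The replicate block gave 644 calls for siNC against untreated VDR, against 1049. Of the calls at named and listed regions, 62 lost their call with 50000 summits, 45 without a trend, 80 with the block, 36 with a kept summit in every library and 293 with no filter, and 1520 of the refits that left out a library lost one; none of these turned its direction. The cause of these changes was not tested beyond the number of regions and libraries in each fit.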

Other observations

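Small nuclear RNA genes, the RNA parts of the spliceosome and of related particles, lay under some of the regions that were wide with siNC and not in tumor. These were looked at after their values were seen. Of 1004 annotated snRNA genes, 29 lay in 25 wide regions. Such regions were wide at 19, 18 and 19 with siNfia, 22, 22 and 22 with siNfib, 20, 19 and 18 with siNC and 1, 0 and 1 in untreated VDR, against 4, 6 and 3 in tumor, 6, 3 and 4 in hyperplasia and 5, 10 and 11 in GNP. The region over Rnu5g, near Igdcc3 (chr9:65191744-65202069), had 11, 15 and 14 summits with siNC and 4, 3 and 2 in tumor. The one over Rnu2-10 (chr11:101657760-101664301) had 11, 13 and 10 with siNC and 3, 5 and 4 in tumor, and the one over Gm23472, near Pecr (chr1:72236217-72240006), had 10, 13 and 11 with siNC and 1, 2 and 1 in tumor. Of the regions wide in all siNC and no tumor libraries, 12 (10.2%) overlapped an snRNA gene, against 0.187% of all wide regions. By rank level 19 of the 25 were higher with siNC than in tumor and 1 lower, with a median of 3.24. Among all wide regions tested 11.9% were higher and 18.7% lower. Of the 25, 18 were wide in all siNC libraries and 18 in no tumor library. The way they were chosen thus in part set this difference, which is given as a description. Neither siNfia nor siNfib gave a call at any of the 25 against siNC in limma. Many snRNA genes have near copies in the genome, so their values are uncertain.

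The higher ranks of Gli2 in untreated VDR extended to its neighbours, a block also chosen after its values were seen. Between 118 and 122 Mb of chromosome 1 lay 39 wide regions, at Gli2, Clasp1, Tsn, Inhbb, En1, Insig2 and other genes. Of these, 33 were higher in untreated VDR than in tumor and 1 lower, with a median of 3.47, while on the rest of the chromosome 222 of 940 were higher and 108 lower, with a median of 0.47. With siNC against untreated VDR 0 were higher and 29 lower in the block, with a median of -2.68, and 35 and 51 on the rest of the chromosome, with a median of 0.11. With siNC against tumor 14 were higher and 2 lower in the block, with a median of 0.91. The cause was not tested.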
